A study of Mus musculus with 13 samples.

Results

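The 6 genes that define whether a neuron releases GABA or glutamate were read in bulk RNA sequencing of the mouse arcuate nucleus. They are the vesicular glutamate transporter genes Slc17a6, Slc17a7 and Slc17a8, the vesicular GABA transporter gene Slc32a1, and the glutamate decarboxylase genes Gad1 and Gad2. They were chosen by name, and each matched 1 of the 55421 gene identifiers in the deposited table. The knockouts (KO) came from crossing Agrp-Cre with Klf4-flox mice, so that Klf4, a zinc-finger transcription factor gene, is deleted in cells that express Agrp, and the controls were their littermates. All mice were 20 weeks old. They had either stayed on standard chow (3 KO and 3 controls) or been switched to a high-fat diet (HFD) for the last 10 weeks (3 KO and 4 controls). The titles carry a sex letter. It was M for KO_Chow replicate 1, Control_Chow replicates 1 and 2, KO_HFD replicate 1 and Control_HFD replicates 1 and 2. It was F for the others. Each library carries its own mouse number, but KO_HFD replicate 2 and Control_HFD replicate 3 share the first part of it, as do Control_HFD replicates 1 and 2. The labels do not say whether that part marks a litter or cage, so these libraries may not be independent. The driver restricts Cre to a minority of arcuate neurons, while the libraries hold RNA of the whole dissected tissue. The sources used here do not give the strain, the Cre line, or whether controls carried Cre.

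GABA and glutamate are the main fast transmitters of the hypothalamus. The 2 decarboxylases make GABA from glutamate, and Slc32a1 loads it into synaptic vesicles. The Slc17a transporters load glutamate, and a neuron is usually classed as glutamatergic by which of them it expresses. In the arcuate nucleus AgRP neurons are GABAergic, KNDy neurons (which make kisspeptin, neurokinin B and dynorphin) are largely glutamatergic, and POMC neurons include cells of both kinds. The neighbouring ventromedial nucleus is almost wholly glutamatergic and rich in Slc17a6.

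The genes lie on 3 chromosomes of the mouse build GRCm38. Slc17a6 (ENSMUSG00000030500.6) spans 51622006 to 51671119 on the plus strand of chromosome 7, and Slc17a7 (ENSMUSG00000070570.5) spans 45163949 to 45176142 on the same strand. Slc17a8 (ENSMUSG00000019935.16) spans 89574020 to 89621253 on the minus strand of chromosome 10. Gad2 (ENSMUSG00000026787.3, 22622205 to 22693874), Gad1 (ENSMUSG00000070880.10, 70553072 to 70602014) and Slc32a1 (ENSMUSG00000037771.11, 158610767 to 158615748) are all on the plus strand of chromosome 2. The counting is not stated to use strand, and the model of Slc32a1 overlaps Gm14205 on the other strand. Reads assigned to Gm14205 averaged 7.42 counts per M counts of the library (CPM), so reads of this pair may not be fully told apart. The antisense gene Gad1os, which overlaps Gad1, averaged 0.251 CPM.

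The promoters of Gad1, Gad2 and Slc17a6 are shown because the first pair varied together over libraries and the third was the most abundant transporter. Each is 300 bases, from 250 before to 50 after the start in RefSeq (GRCm38.p6), 5′ to 3′ on the gene's strand. Capitals mark matches on either strand, at any position, to TATAAA (the TATA box motif) or GGGCGG (the GC box motif). CACGTG (an E-box) was also searched. A match alone does not show a working element.
Gad1, chr2:70561879-70562178, plus strand: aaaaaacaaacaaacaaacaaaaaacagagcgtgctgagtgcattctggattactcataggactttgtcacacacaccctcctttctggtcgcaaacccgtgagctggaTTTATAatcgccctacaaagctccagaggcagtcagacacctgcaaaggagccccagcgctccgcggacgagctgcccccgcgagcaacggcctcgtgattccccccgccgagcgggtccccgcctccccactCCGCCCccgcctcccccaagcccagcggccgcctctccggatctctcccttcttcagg
Gad2, chr2:22622077-22622376, plus strand: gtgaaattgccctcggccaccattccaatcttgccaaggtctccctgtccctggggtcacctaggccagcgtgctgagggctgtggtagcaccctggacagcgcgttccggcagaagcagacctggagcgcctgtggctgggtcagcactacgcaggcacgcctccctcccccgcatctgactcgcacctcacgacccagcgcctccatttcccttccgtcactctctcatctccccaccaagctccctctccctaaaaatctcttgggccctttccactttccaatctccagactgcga
Slc17a6, chr7:51621580-51621879, plus strand: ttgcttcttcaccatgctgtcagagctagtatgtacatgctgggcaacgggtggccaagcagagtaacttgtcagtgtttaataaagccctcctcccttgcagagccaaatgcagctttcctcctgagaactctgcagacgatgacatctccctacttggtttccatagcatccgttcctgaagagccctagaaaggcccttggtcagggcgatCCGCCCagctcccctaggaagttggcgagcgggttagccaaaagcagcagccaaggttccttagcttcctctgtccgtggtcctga
Gad1 held 1 match to TATAAA and 1 to GGGCGG, Slc17a6 held 1 to GGGCGG, and Gad2 held none of the 3 motifs. Over all 32851 promoters of this length 13.6% held TATAAA, 35.7% GGGCGG and 7.15% CACGTG. The promoter of Gad1 had 21 CpG dinucleotides, that of Gad2 14 and that of Slc17a6 8, against a median of 7 over all promoters. RefSeq gives Slc17a6 a 2nd start, whose promoter has 3 CpG dinucleotides and none of these motifs; the 1st is shown. The Gad1 and Gad2 sequences share none of these motifs. The Gad1 promoter shown lies inside the gene span given above, past its first base.

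The libraries held 34.7 to 68.2 M counts. Klf4 was at 2.14 to 3.12 CPM in KO and 2.37 to 3.196 in controls on chow, and at 2.40 to 5.95 in KO and 1.58 to 5.61 in controls on HFD. It overlapped between genotypes on both diets, and a whole-gene count in whole tissue does not measure the deletion. Hsd11b2, a gene near Agrp on the same chromosome, was at 60.7 to 68.5 CPM in the 6 KO libraries and 0.348 to 1.55 CPM in 6 of the 7 controls, but at 63.6 CPM in the library labelled Control_HFD replicate 3. Xist, the RNA of the inactive X chromosome, gave 0.674 CPM for Control_Chow replicate 3, although its title has the letter F, and 38.2 to 64.5 CPM for the remaining 6 libraries with an F. Genes of the Y chromosome summed to 182, 208 and 180 CPM in the chow controls, and to 206, 2.03 and 0.481 CPM in chow KO. By these reads each chow control was at the level of M libraries, while KO_Chow replicates 2 and 3 were not. Sex and genotype are thus partly confounded on chow, and the part of sex in the chow differences was not tested. The fits used the letters of the titles, so Control_Chow replicate 3 entered them as F. Control_HFD replicate 3 and Control_Chow replicate 3 were kept in their labelled groups, and results without them are given where they differ. The 12 arcuate neuron markers (among them Agrp, Npy and Pomc) had reads in every library. Their sum was 1050 to 1062 CPM in chow controls and 1608 to 3717 CPM in the other 10 libraries. The 10 pan-neuronal genes (Snap25, Syt1 and others) summed to 4883 to 5782 CPM in chow controls and 4145 to 5050 in chow KO. On HFD their sum was 4154 to 5264 CPM in controls and 3469 to 5007 in KO. In bulk tissue, fewer cells of a type and less RNA per cell cannot be told apart.

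Levels between genes were compared as the deposited RPKM (reads per kilobase of gene model per M counts). Slc17a6 was at 54.4 ± 15.3 RPKM (SD, n = 13), Gad1 at 43.0 ± 11.1 and Gad2 at 39.5 ± 5.91. The ranges of these 3 genes overlapped, and the difference in their levels was not tested. Slc17a6 was the highest of the 6 in 9 of 13 libraries, Gad1 in the other 4, and Gad1 exceeded Gad2 in 7 of 13. Slc32a1 was lower, at 8.0 ± 1.38 RPKM, below both decarboxylases in 13 of 13 libraries. Slc17a7 was at 0.658 ± 0.528 RPKM and Slc17a8 at 0.122 ± 0.075. Slc17a7 exceeded Slc17a8 in 12 of 13 libraries, and both lay below Slc32a1 in all of them. Slc17a6 made up 95.9% to 99.7% of the summed RPKM of the 3 glutamate transporters. Slc17a7 is the main transporter of cortex, and Slc17a8 is found in scattered cell groups.

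**Figure D1:**
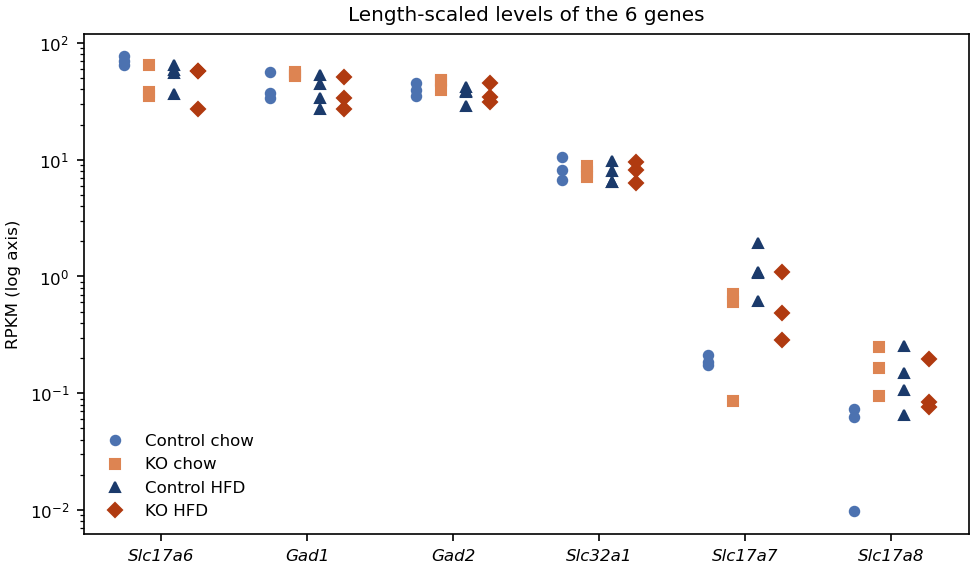
Deposited RPKM (log axis) of the 6 genes, 1 point per library, coloured by group (3 control chow, 3 KO chow, 4 control HFD and 3 KO HFD libraries). Slc17a6, Gad1 and Gad2 share a range between 26.9 and 76.5 RPKM, Slc32a1 lies between 6.31 and 10.5, and Slc17a7 and Slc17a8 lie below 2 RPKM in each library.

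The genes differed in how much they varied between mice. Over the 13 libraries the coefficient of variation was 14.98% for Gad2 and 17.2% for Slc32a1. It was 25.9% for Gad1 and 28.2% for Slc17a6, and 61.6% and 80.1% for the rare Slc17a8 and Slc17a7. Slc17a8 rested on 2 to 59 reads a library and Slc17a7 on 30 to 712, so counting error weighs more in their spread than in that of Slc17a6, with 7128 to 23414 reads.

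Slc17a6 encodes VGLUT2, the vesicular transporter of most hypothalamic glutamate neurons. In chow controls it was at 381, 350 and 413 CPM, in KO on chow at 349, 190 and 204 CPM. The groups did not overlap, but KO_Chow replicate 1, at 349 CPM, lay just below the lowest control. The HFD controls had 352, 199, 314 and 299 CPM and the HFD KO 312, 312 and 145 CPM, and these groups overlapped. Across all groups 4 libraries lay at 145 to 204 CPM (KO_Chow replicates 2 and 3, Control_HFD replicate 2 and KO_HFD replicate 3) and the other 9 at 299 to 413 CPM, so the low level was not restricted to a genotype or a diet. The fitted KO to control difference on chow was -0.60 ± 0.34 (log2 fold change ± SE), with an edgeR adjusted p of 0.482. It was -0.98 ± 0.39 without KO_Chow replicate 1 (edgeR adjusted p 0.357), -0.38 ± 0.41 without Control_Chow replicate 3 (edgeR adjusted p 0.824) and -0.35 ± 0.42 without both doubted libraries (edgeR adjusted p 0.827). The HFD difference was -0.17 ± 0.31 (edgeR adjusted p of 1), and with 1 library left out it took either sign. The chow controls also had the lowest arcuate sums and pan-neuronal sums mostly above those of KO. The sum of 8 ependymal and tanycyte genes was 55.5 to 125 CPM in chow controls and 136 to 299 CPM in chow KO, without overlap. KO_Chow replicate 1, nearest the controls in Slc17a6, is the M library of chow KO. The part of these sums and of sex in the chow differences of Slc17a6 and Slc17a8 was not tested.

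Slc17a7 encodes VGLUT1, the transporter of cortical and hippocampal projection neurons. Its level was 1.15, 0.942 and 0.997 CPM in chow controls and 5.78, 5.93, 3.32 and 10.4 CPM in controls on HFD. Each control on HFD lay above each control on chow, with means of 6.37 ± 2.96 (SD, n = 4) and 1.03 ± 0.11 CPM (SD, n = 3). In KO it was at 0.462, 3.82 and 3.27 CPM on chow and 1.55, 2.62 and 5.87 CPM on HFD, where the diets overlapped. The log2 fold change of HFD against chow was 2.45 ± 0.60 (SE) in controls, with an edgeR adjusted p of 0.563 and an unadjusted p of 0.00204. In KO it was 0.52 ± 0.58 (edgeR adjusted p of 0.984), 0.0099 ± 0.50 without KO_Chow replicate 1 and 0.86 ± 0.67 without KO_Chow replicate 2. DESeq2 called the control difference (2.44 ± 0.51, DESeq2 adjusted p 0.00552), 1 of the 46 genes it called there, or 0.282% of those it gave an adjusted p. By either tool the difference in the diet effect between KO and control was not called: the interaction was -1.93 ± 0.83 (edgeR adjusted p 0.909, DESeq2 0.743). With 1 library left out the control difference was 2.08 to 2.72 by edgeR, and it was 2.26 ± 0.50 without both doubted libraries (edgeR adjusted p 0.923). Chow mice and HFD mice have numbers from separate series in the titles, and a batch that follows the numbers and the diet cannot be told apart. KO against control gave -1.26 ± 0.57 for Slc17a7 on HFD (edgeR adjusted p of 1) and 0.68 ± 0.67 on chow (edgeR adjusted p 0.707). Without both doubted libraries these were -1.82 ± 0.43 (edgeR adjusted p of 1) and -0.18 ± 0.56 (edgeR adjusted p 0.942), so the sign on chow rested on them. The chow difference was also 1.40 ± 0.58 without KO_Chow replicate 1 (edgeR adjusted p 0.361) and 0.18 ± 0.79 without Control_Chow replicate 3 (edgeR adjusted p 0.965).

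Markers of tissue that is rich in Slc17a7 were read beside it. Tbr1, a cortical transcription factor, was at 0.138 to 0.458 CPM in chow controls and 0.396 to 1.41 CPM in controls on HFD, and was highest in Control_HFD replicate 4, the library with the most Slc17a7. Neurod2, another cortical factor, was at 0.115 to 0.270 and 0.176 to 0.791 CPM in these groups and was highest in the same library. Neurod6 was at 0.12 to 0.54 and 0.17 to 0.64 CPM in the same groups, and Emx1 at 0.05 to 0.07 and 0.04 to 0.41 CPM. These genes did not peak in Control_HFD replicate 4. Neurod6 was highest in Control_HFD replicate 3 (0.64 CPM), which had the least Slc17a7 of the controls on HFD. Among the controls Emx1 was highest in Control_HFD replicate 2 (0.41 CPM), and it was at 0.059 CPM in Control_HFD replicate 4. The whole list of 8 cortical and hippocampal genes, all with reads in every library, summed to 244 to 366 CPM in chow controls and 224 to 346 CPM in controls on HFD, with overlap. Of the 8 genes 6 had a positive log2 fold change for HFD against chow in controls. The median of the 8 was 0.39, beside 0.0062 for all genes. An unadjusted edgeR p under 0.05 was reached by 2 of 8, against 8.06% of all genes. The sum was mostly Camk2a, Sv2b and Nrgn, with means of 114, 109 and 73.8 CPM in chow controls. In controls on HFD these were 104, 84.7 and 102 CPM. Part of the list, such as Camk2a, is also expressed by hypothalamic neurons, so the sum does not measure cortical content alone. The arcuate marker sum was 1642 to 3534 CPM in controls on HFD and 1050 to 1062 CPM in chow controls, without overlap. The sum of 6 microglia genes was 388 to 564 CPM in controls on HFD and 290 to 380 CPM in chow controls, also without overlap. The sum of 8 pituitary genes was 1.45 to 6.08 CPM in chow controls and 1.02 to 205 CPM in controls on HFD, with overlap, and was highest among the controls in Control_HFD replicate 4. Of the 7 pituitary genes tested 6 had a positive log2 fold change for HFD against chow in controls. The median of the 7 was 3.16, beside 0.0062 for all genes. At an unadjusted edgeR p under 0.05 were 2 of the 7, against 8.06% of all genes. Cga was at 0.391 to 4.06 CPM in chow controls and 0.331 to 166 CPM in controls on HFD. Pitx1 was at 0.069 to 1.53 and 0.066 to 16.2 CPM in these groups. Gh and Prl were under 1 CPM in the controls. The part of these sums and of sex in the Slc17a7 difference was not tested.

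Slc17a8 encodes VGLUT3. It was at 0.346, 0.046 and 0.296 CPM in chow controls and 0.446, 0.774 and 1.17 CPM in KO on chow, with no overlap. These levels rest on 12, 2 and 11 reads in controls and 29, 29 and 46 in KO. Controls on HFD had 0.707, 1.21, 0.506 and 0.308 CPM of Slc17a8 and KO on HFD had 0.920, 0.394 and 0.360 CPM, with overlap. The chow difference was 1.95 ± 0.71 (SE, log2 fold change), with an edgeR adjusted p of 0.297, and the HFD difference was -0.20 ± 0.58 (edgeR adjusted p of 1). The interaction was -2.15 ± 0.91 (edgeR adjusted p 0.909), so a difference between diets was not established. Without Control_Chow replicate 2, the library with 2 reads, the chow difference was 1.45 ± 0.62 (edgeR adjusted p 0.326).

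Slc32a1 encodes VGAT, the vesicular carrier of GABA, and had the most even group means of the 6 genes: 23.6 ± 5.34 CPM in chow controls, 22.3 ± 2.43 in chow KO (SD, n = 3 each), 21.5 ± 4.49 in HFD controls (n = 4) and 22.4 ± 4.51 in HFD KO (n = 3). Single libraries ran from 17.6 CPM in KO_HFD replicate 2 to 29.3 CPM in Control_Chow replicate 2. The groups overlapped in each of the 4 pairwise comparisons. For KO relative to control the log2 fold change was -0.04 ± 0.20 (SE) on chow and 0.08 ± 0.18 on HFD, and for HFD relative to chow it was -0.13 ± 0.18 in controls and 0.0008 ± 0.19 in KO.

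Gad1 encodes GAD67, which makes most GABA in the cell, and Gad2 encodes GAD65, the form bound to synaptic vesicles. Gad1 was at 259, 431 and 286 CPM in chow controls and 397, 429 and 404 CPM in KO on chow. Its HFD values were 258, 339, 406 and 206 CPM in controls and 258, 209 and 391 CPM in KO. KO on chow was the tightest group (410 ± 16.8 CPM, SD, n = 3), and each of its libraries exceeded each KO on HFD, at a log2 fold change of HFD against chow of -0.53 ± 0.28 (SE, edgeR adjusted p 0.984). Gad2 was at 207, 264 and 233 CPM in chow controls and 233, 278 and 281 in chow KO. Its HFD values were 227, 224, 244 and 171 CPM in controls and 202, 185 and 267 in KO. Its groups overlapped throughout, and its log2 fold change of HFD against chow in KO was -0.28 ± 0.15 (edgeR adjusted p 0.984). KO against control gave 0.31 ± 0.29 for Gad1 and 0.13 ± 0.15 for Gad2 on chow, and -0.09 ± 0.26 and -0.01 ± 0.14 on HFD.

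**Figure D2:**
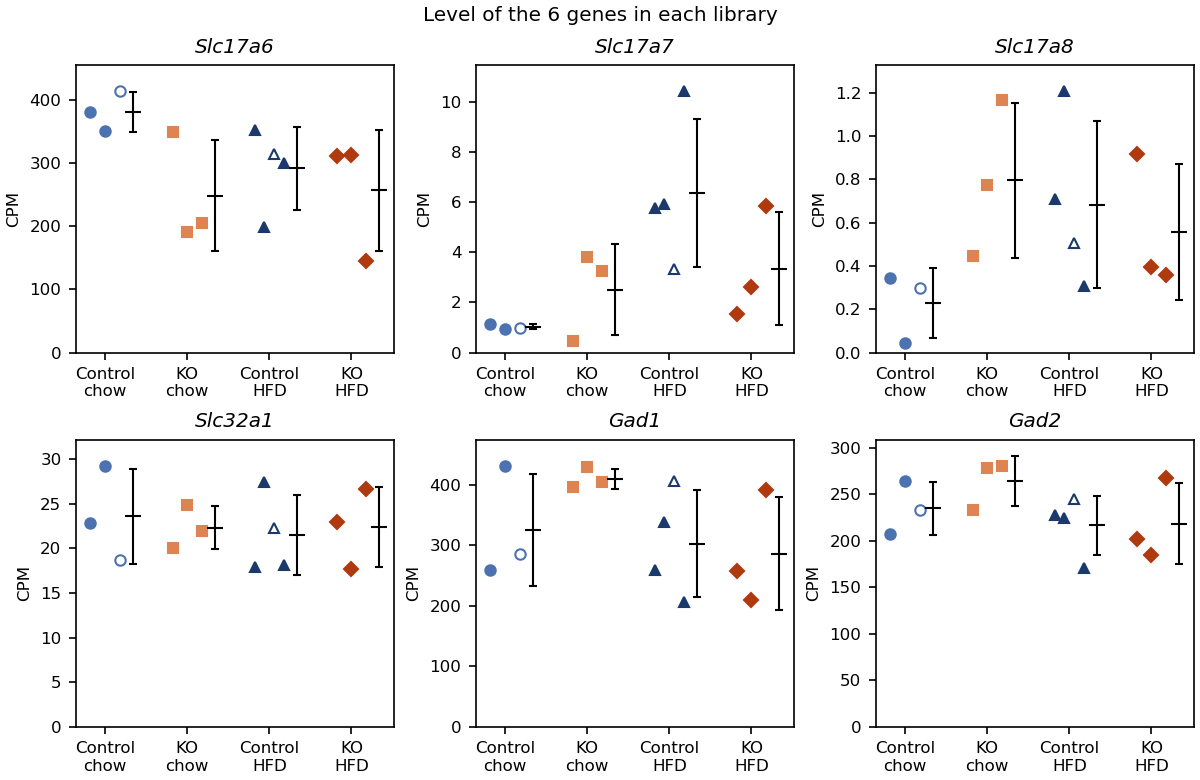
CPM of each gene in each library by group, with the group mean and SD beside the points (n = 3, 3, 4 and 3). Open symbols are the libraries labelled Control_Chow replicate 3 and Control_HFD replicate 3. Slc17a7 lies between 0.942 and 1.15 CPM in the chow controls and between 3.32 and 10.4 CPM in the controls on HFD, while Slc32a1 has like means in all 4 groups.

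The fits were read together to ask whether Klf4 deletion or diet moved the transmitter genes. edgeR's quasi-likelihood test called 0 of the 6 genes for KO against control on chow and 0 on HFD, as it called 0% of all 23622 genes tested on each diet. On chow 1 of 6, Slc17a8, was under an unadjusted p of 0.05 by edgeR, as were 12.9% of all genes. On HFD it was 0 of 6 against 1.66%. On chow DESeq2 gave 4 of the 6 an adjusted p, not Slc17a7 and Slc17a8, and called 0 of these 4, against 2.84% of the 11715 genes it gave one. On HFD it called 0 of 6, against 0%. Slc17a6 and Slc17a8 did not overlap between KO and control on chow, 2 of 6 genes against 19.5% of all genes, and no member was separate on HFD, against 3.2%. The median log2 fold change of the 6 genes was 0.22 on chow and -0.13 on HFD, beside -0.0022 and -0.0033 for all genes.

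Averaged over the diets, 0 of 6 genes were called, against 0% of all genes, and 0 of 6 reached an unadjusted p under 0.05, against 9.5%. There too DESeq2 gave Slc17a7 and Slc17a8 no adjusted p, and it called 0 of the other 4, against 0.373% of the 14462 genes it gave one. Slc17a6 had -0.38 ± 0.23 (edgeR adjusted p 0.594) and Slc17a8 0.88 ± 0.46 (edgeR adjusted p 0.548). For HFD against chow in controls edgeR called 0 of 6, against 0%, and 2 of 6 (Slc17a7 and Slc17a8) reached an unadjusted p under 0.05, against 8.06%. Slc17a8 gave 1.55 ± 0.66 there (edgeR adjusted p 0.604), and 0.97 ± 0.59 without Control_Chow replicate 2 (edgeR adjusted p 0.688). In KO 0 of 6 were called by edgeR, against 0%, and 0 of 6 reached the unadjusted level, against 4.05%. DESeq2 called 0 of 6 there, against 0.0396%. For the interaction 0 of 6 were called by edgeR, against 0%, and by DESeq2, against 0.0254%, and 2 of 6 (again Slc17a7 and Slc17a8) reached the unadjusted level, against 5.1%. Slc17a7 did not overlap between diets in controls, 1 of 6 against 9.75% of all genes, nor did Gad1 in KO, 1 of 6 against 8.57%. The comparisons share groups, so their values are not independent of each other. The SEs of Slc32a1 and Gad2 were the smallest, at 0.14 to 0.20 log2 units in the 4 pairwise comparisons, while those of Slc17a7 and Slc17a8 were 0.57 to 0.71.

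**Figure D3:**
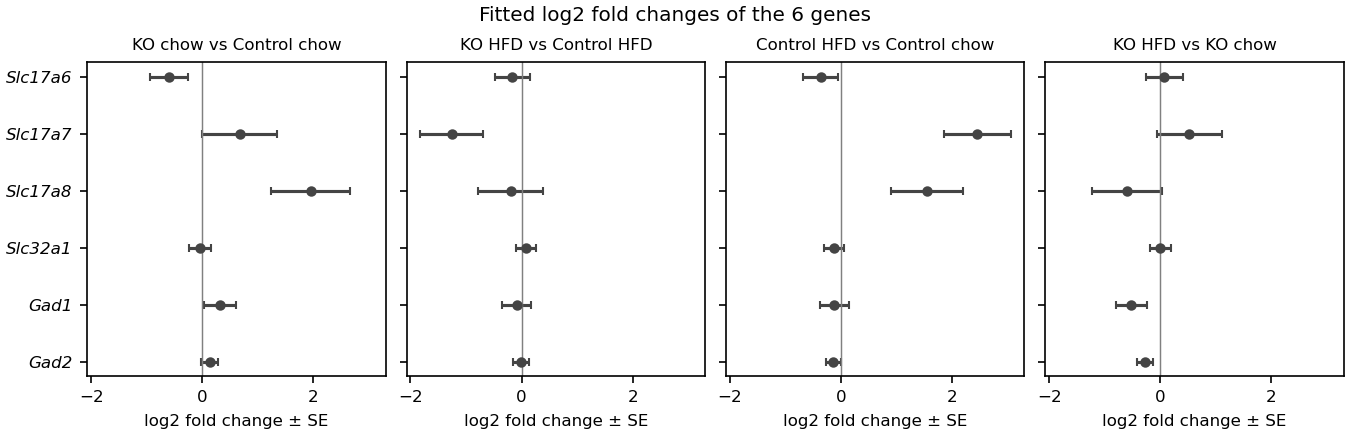
Fitted log2 fold change and SE (edgeR) of each gene in 4 comparisons of 2 groups (n = 3 or 4 libraries a group, 13 in the fit). The values of Slc32a1 lie within 1 SE of 0 in the 4 panels. The widest departures are Slc17a7 for HFD against chow in controls (2.45 ± 0.60) and Slc17a8 for KO against control on chow (1.95 ± 0.71).

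The balance of GABA to glutamate genes was described as a ratio of RPKM within each library, with no test. Summed Gad1 and Gad2 over the summed glutamate transporters was 0.978, 1.56 and 1.00 in chow controls and 1.41, 2.86 and 2.60 in KO on chow. On HFD it was 1.09, 2.16, 1.61 and 0.976 in controls and 1.17, 1.01 and 3.44 in KO. The 4 libraries above 2 were those low in Slc17a6, and they came from 3 of the 4 groups. Slc17a6 is nearly all of the lower term of this ratio, so a low Slc17a6 by itself raises it. The log2 ratio of Slc32a1 to Slc17a6 was -3.09 ± 0.44 in chow controls, -2.47 ± 0.62 in chow KO (SD, n = 3 each), -2.81 ± 0.63 in HFD controls (n = 4) and -2.50 ± 0.89 in HFD KO (n = 3). The groups overlapped in both ratios.

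**Figure D4:**
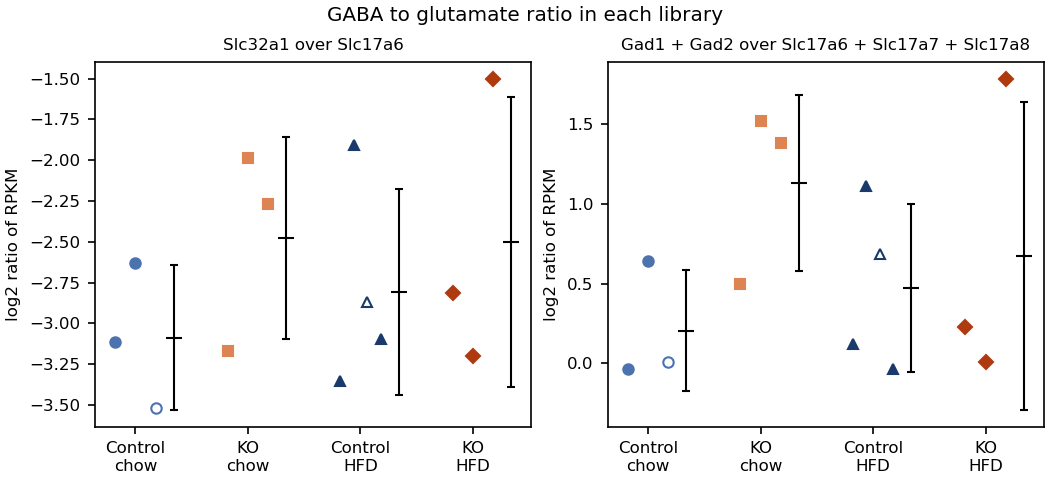
Log2 ratio of RPKM in each library for Slc32a1 over Slc17a6 (left) and for summed Gad1 and Gad2 over the summed glutamate transporters (right), by group with mean and SD (n = 3, 3, 4 and 3); open symbols are the 2 doubted libraries. Within each of KO on chow, controls on HFD and KO on HFD, single libraries span more than the distance between the group means.

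The 6 genes were next compared with each other over the 13 libraries, as log2(CPM + 1), in 15 pairs. Gad1 and Gad2 varied together, with Pearson's r = 0.914 (permutation p = 2e-05, adjusted 0.0003) and Spearman's rho = 0.868 (permutation p = 0.00022, adjusted 0.0033). Without the 2 libraries farthest from the median of Gad1 r was 0.835, and it was 0.841 within chow (n = 6) and 0.917 within HFD (n = 7). It was the 1 pair of 15 that passed Benjamini-Hochberg adjustment. Slc32a1 and Gad1 gave r = 0.679 (permutation p = 0.0131, adjusted 0.0983) and rho = 0.604 (permutation p = 0.0317, adjusted 0.159). Over all 13 libraries the r of Slc17a6 with the other 5 genes ran from -0.56 (Slc17a7) to -0.43 (Gad1), and none passed adjustment. Because Slc17a6 lay in separate ranges, its relations were also read within the 9 libraries above 299 CPM. There its r with the other 5 genes ran from -0.56 (Slc17a7, exact permutation p = 0.116) to 0.50 (Gad2, exact permutation p = 0.172), with an adjusted p of 0.43 or more over the 5 pairs.

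Markers of cell types and neighbouring nuclei varied with these genes, and their part in any group difference was not tested. Of the 66 relations between the 6 genes and 11 marker sums, 18 passed adjustment on r. Gad1 varied inversely with the sum of 5 ventromedial genes (Nr5a1, Fezf1, Sox14, Vgll2 and Adcyap1), at r = -0.75 (permutation p = 0.00333, adjusted 0.02) and rho = -0.72 (permutation p = 0.007, adjusted 0.0512). That r was -0.79 without the 2 libraries farthest from the median sum, -0.91 within chow (n = 6) and -0.75 within HFD (n = 7). For Gad2 r was -0.72 (permutation p = 0.00565, adjusted 0.0308) and rho -0.68 (permutation p = 0.0127, adjusted 0.0646), and for Slc32a1 r was -0.78 (permutation p = 0.00172, adjusted 0.0122) and rho -0.65 (permutation p = 0.0182, adjusted 0.0749). Without the 2 farthest libraries these were -0.69 for both genes. Within chow and within HFD they were -0.84 and -0.75 for Gad2, and -0.77 and -0.79 for Slc32a1. The inverse relation of the 3 GABA genes to the ventromedial sum thus passed adjustment by r and not by rho. It was not particular to the ventromedial genes. Gad1 and Gad2 were also inverse to the cortical and hippocampal sum, which was mostly Camk2a, Sv2b and Nrgn, by r and again not by rho. There r was -0.682 for Gad1 (permutation p = 0.0109, adjusted 0.0424) and -0.697 for Gad2 (permutation p = 0.00873, adjusted 0.0384). Each ventromedial gene had reads in every library, with the sum at 130 to 387 CPM in chow controls, 162 to 240 in chow KO, 174 to 338 in HFD controls and 82.9 to 313 in HFD KO. Gad1 and Gad2 varied with the sum of 7 thalamic genes, such as Tcf7l2 and Rora, which ran from 114 to 144 CPM. For Gad1 r was 0.822 (permutation p = 0.00138, adjusted 0.0122) and rho 0.797 (permutation p = 0.00167, adjusted 0.022), and r was 0.836 without the 2 farthest libraries, 0.934 within chow and 0.697 within HFD. For Gad2 r was 0.79 (permutation p = 0.00155, adjusted 0.0122) and rho 0.775 (permutation p = 0.00274, adjusted 0.03), and r was 0.79 without the 2 farthest libraries, 0.733 within chow and 0.756 within HFD. Some of these genes are also expressed outside the thalamus.

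Over all 13 libraries Slc17a6 varied with the pan-neuronal sum, at r = 0.975 (permutation p = 2e-05, adjusted 0.00132). There it was inverse to the ependymal and tanycyte (r = -0.895), arcuate (-0.859) and microglia (-0.808) sums. All of these passed adjustment by r and by rho. The cortical and hippocampal (0.852), ventromedial (0.782) and astrocyte (-0.671) sums passed by r and not by rho. The 9 libraries above 299 CPM were cut on Slc17a6 itself, which narrows its range. Within them r with the pan-neuronal sum was 0.887 (exact permutation p = 0.0014, adjusted over 11 marker sums 0.0154) and rho 0.80 (exact permutation p = 0.0138, adjusted 0.14). That r was 0.581 without the 2 farthest of them, so the relation within the 9 rests in part on these. Within the same 9 libraries r was -0.72 with the arcuate sum (exact permutation p = 0.0329, adjusted 0.161), with rho = -0.60 (exact permutation p = 0.0968, adjusted 0.355). With the microglia sum r was -0.68 (exact permutation p = 0.0439, adjusted 0.161) and rho -0.75 (exact permutation p = 0.0255, adjusted 0.14). With the ependymal and tanycyte sum r was -0.33 (exact permutation p = 0.383, adjusted 0.618) and rho -0.28 (exact permutation p = 0.463, adjusted 0.637). Within the 9 libraries none of these 3 passed adjustment. The 4 libraries low in Slc17a6 had pan-neuronal sums of 3469 to 4203 CPM and the other 9 sums of 4752 to 5782 CPM. KO_HFD replicate 3, the lowest in Slc17a6, also had the lowest ventromedial sum (82.9 CPM), the highest arcuate sum (3717 CPM) and the highest ependymal and tanycyte sum (410 CPM). Control_Chow replicate 2 stood apart in another way: its ventromedial sum was 130 CPM, with Nr5a1 at 2.69 CPM, while Slc17a6 stayed at 350 CPM, and it had the highest sum of mammillary and premammillary genes (83.8 CPM against 3.14 to 35.2 in the others). Its Slc32a1 and Gad1 were the highest of all libraries. Slc17a7 varied with the sum of 6 microglia genes, at r = 0.777 (permutation p = 0.00185, adjusted 0.0122) and rho = 0.846 (permutation p = 0.00046, adjusted 0.00759). That r was 0.746 without the 2 farthest libraries, 0.867 within chow and 0.431 within HFD. Slc17a7 also varied with the astrocyte sum (r = 0.718, permutation p = 0.00607, adjusted 0.0308). Slc17a8 varied with the arcuate sum (r = 0.714, permutation p = 0.00686, adjusted 0.0323). It was inverse to the mammillary and premammillary sum (r = -0.684, permutation p = 0.00938, adjusted 0.0387). The astrocyte relation of Slc17a7 and both relations of Slc17a8 did not pass by rho.

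**Figure D5:**
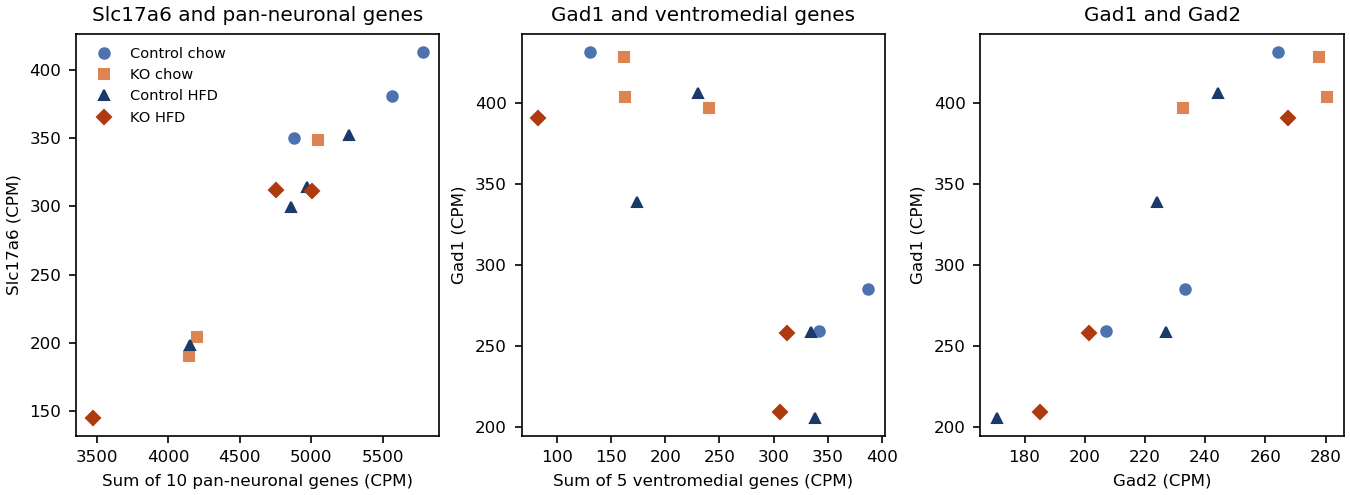
CPM of Slc17a6 against the sum of 10 pan-neuronal genes (left), of Gad1 against the sum of 5 ventromedial genes (middle) and of Gad1 against Gad2 (right), 1 point per library (n = 13), by group. The 4 libraries with Slc17a6 at 145 to 204 CPM have the 4 lowest pan-neuronal sums, and Gad1 and Gad2 lie along a line (r = 0.914 on log2(CPM + 1)).

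The genes whose pattern was most like each member were found among 12068 genes with a mean of at least 5 CPM, by Pearson's r of log2(CPM + 1) over 13 libraries. These r are the highest of many and carry no test. For Slc17a6 they were Snap91 (r = 0.982), which acts in clathrin coat assembly at synapses, the sodium channel subunit gene Scn2b (0.966) and Nsf (0.965), whose product takes apart SNARE complexes. Within the 9 libraries above 299 CPM their r was 0.913, 0.824 and 0.746. For Slc32a1 they were the potassium channel gene Kcnk3 (0.948), Dtx2 (0.927) and Shroom3 (0.881). For Gad1 they were Vwa5b1 (0.965), Msantd4 (0.957) and Tekt1 (0.944), and for Gad2 they were Kif27 (0.921), Ptpro (0.917) and Cdc14b (0.905). Slc17a7 was most like Phyhd1 (0.936), Fgf2 (0.914) and Tmem204 (0.877), and Slc17a8 most like Dnah1 (0.882), Zfp358 (0.844) and B3gnt9 (0.827).

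Genes that recycle the transmitters were read from the same fits. Of 6 genes for GABA uptake and breakdown 0 passed the edgeR test in each of the 6 comparisons. On chow 6 of 6 had a negative log2 fold change in KO, with a median of -0.27, where 49.6% of all genes were positive, and 1 of 6 reached an unadjusted p under 0.05, against 12.9% of all genes. That gene was Aldh5a1, the last enzyme of GABA breakdown, at 33.6 CPM (range 30.4 to 37.1) in KO and 40.5 CPM (37.8 to 42.2) in controls, a log2 fold change of -0.30 ± 0.11 (edgeR adjusted p 0.305). The astrocytic GABA transporter gene Slc6a11 gave -0.25 ± 0.13 (edgeR adjusted p 0.457). On HFD 5 of 6 were negative, with a median of -0.05, where 49.0% of all genes were positive, and Aldh5a1 gave 0.09 ± 0.10. In controls Aldh5a1 gave -0.28 ± 0.10 for HFD against chow (edgeR adjusted p 0.591).

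Of 13 genes for glutamate uptake and the glutamine cycle 0 passed in each comparison. edgeR called 0% of all genes in each. On chow 11 of 13 had a negative log2 fold change in KO (median -0.13), where 49.6% of all genes were positive, and 1 of 13 reached an unadjusted p under 0.05, against 12.9%. On HFD 6 of 13 were negative (median 0.01), where 49.0% of all genes were positive, and 0 of 13 reached that level, against 1.66%. The neuronal glutamine transporter gene Slc38a2 gave 0.68 ± 0.33 for HFD against chow in KO (edgeR adjusted p 0.984), and Got2 gave -0.21 ± 0.13 for KO against control on chow (edgeR adjusted p 0.503).

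Of 9 transcription factor genes of GABA neurons 7 passed the filter on low counts, Sp8 and Lhx8 did not, and 0 passed the test. All 7 had a negative log2 fold change for HFD against chow in KO, with a median of -0.88, where 49.7% of all genes were positive. Of these, 4 reached an unadjusted p under 0.05, against 4.05% of all genes in either direction. Among them was Dlx5 (-0.88 ± 0.37), at an edgeR adjusted p of 0.984. Dlx5 was at 9.02 to 11.9 CPM in KO on chow and 5.03 to 6.13 CPM in KO on HFD. For KO against control on chow 6 of 7 were positive (median 0.36), with Sp9 at 1.42 ± 0.48 (edgeR adjusted p 0.281).

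Markers of other transmitters, 14 genes, gave 0 past the edgeR test in each comparison, with 13 tested and Slc6a4 left out by the filter. Th, which catalyses the limiting step towards dopamine, was at 52.8 to 57.5 CPM in chow controls and 77.3 to 250 CPM in chow KO, without overlap, at 1.48 ± 0.38 (edgeR adjusted p 0.263). Th is also 1 of the 12 arcuate markers above. Tph2, which makes serotonin, gave 1.38 ± 0.57 in the same comparison (edgeR adjusted p 0.347). Slc5a7, the choline transporter of cholinergic neurons, was at 0.962 to 1.54 CPM in controls on HFD and 1.47 to 3.10 CPM in KO on HFD, a log2 fold change of 0.83 ± 0.30 (edgeR adjusted p of 1). Hdc, which makes histamine in the tuberomammillary nucleus, ran from 4.28 to 232 CPM over the libraries. It was at 80.5 to 232 CPM in chow controls. On HFD it was at 9.23 to 171 CPM in controls (median 20.7) and 4.28 to 12.3 CPM in KO, with overlap. Hdc gave -2.83 ± 1.32 for KO against control on HFD (edgeR adjusted p of 1). Slc6a5, the glycine transporter of glycinergic neurons, gave 2.02 ± 0.69 for HFD against chow in controls (edgeR adjusted p 0.587), at levels under 0.4 CPM.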

How the data were processed

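Arcuate nucleus RNA of 13 mice was sequenced with the SMART-Seq v4 kit for low input, per the labels' protocols. The deposited table gives counts of reads per gene, and it also gives RPKM values that the authors computed from the counts and a gene length. The submitters' processing notes list FastQC, STAR, STAR-Fusion, Subread, edgeR and the build mm10, with neither version nor role. The sources used here do not state the annotation release, read filters or strand setting.

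CPM was each count over the library total. The counts were fitted with edgeR 4.0.16 (R 4.3.3, limma 3.58.1): TMM factors, filterByExpr, 4 group means with the sex letter of the titles as a covariate, robust quasi-likelihood tests, and Benjamini-Hochberg adjustment over 23622 genes at 0.05. That test gives no SE. The SE printed with an edgeR log2 fold change is its absolute value over the square root of the F statistic, while DESeq2 gives its own. The sex letter coded Control_Chow replicate 3 as F, although its Xist and Y chromosome reads were at the level of M libraries. DESeq2 1.42.0, other scalings, no filter, no sex letter, fits of only the groups compared and fits without single or doubted libraries were the alternatives. No fit used sex as read from Xist and the Y chromosome. The fit was also run on simulated counts with 1 dispersion for all genes and no differences in tissue content, unlike these libraries. No result here rests on that run. Correlations used log2(CPM + 1) and 100000 permutations, two-sided, or exact permutation for 9 libraries, and the marker relations were added after the values were seen. The members and lists were chosen with earlier results of these data known. Besides the 6 genes, the text names the label checks, up to 2 genes with the smallest p per pathway list and comparison, and the 3 genes most like each member; some genes of the lists are not reported here by name. Libraries have their own mouse numbers, and p-values measure the spread between these libraries. Groups of 3 against 3 cannot reach an exact permutation p below 0.10, so tests came from the fit across genes. With 34.7 to 68.2 M counts a library, 1 read was 0.0147 to 0.0288 CPM. Gene positions are from GENCODE M21. Replicates of a group differed beyond counting noise, with a chi-square per degree of freedom of at least 14.96.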

Additional observations from a re-analysis of the deposited data

How the results depend on the processing

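Of 708 values of the 36 log2 fold changes of the 6 genes under alternatives, 663 kept their sign and side of the threshold, 44 changed sign and 1 (Slc17a7 for HFD against chow in controls, by DESeq2) passed the threshold. Values to which DESeq2 gave no adjusted p were counted as not past the threshold. The cause of the changes was not tested. DESeq2 called 333 genes for KO against control on chow, 54 for the mean of both diets, 6 for the interaction, 46 for the diets in controls and 9 for the diets in KO, where edgeR called 0. Without a filter edgeR called 1 gene for KO against control on chow and 5 for HFD against chow in controls, and with only the compared groups fitted 1 for KO against control on chow. Without both doubted libraries it called 1 for KO against control on HFD, 1 on chow and 1 for their mean. Leaving out 1 library gave 0 to 1 called genes for KO against control on HFD and 0 to 1 on chow, 0 to 2 for their mean and 0 to 2 for HFD against chow in controls.

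For KO against control on HFD, Gad2 gave 0.00021 without a filter, 0.0035 without the sex letter, 0.0049 with only the compared groups, and 0.061 without both doubted libraries, where Gad1 gave 0.12. Slc17a7 gave -0.18 on chow without both doubted libraries and 0.14 for the mean of both diets without the sex letter. Slc32a1 gave -0.017 for that mean without the sex letter and -0.044 without both doubted libraries.

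With 1 library left out, KO against control on HFD ran from -0.43 to 0.11 for Slc17a6, -0.78 to 0.12 for Slc17a8, -0.063 to 0.20 for Slc32a1, -0.35 to 0.14 for Gad1 and -0.14 to 0.087 for Gad2, and on chow from -0.20 to 0.11 for Slc32a1. The mean of both diets ran from -0.59 to 0.15 for Slc17a7, -0.069 to 0.11 for Slc32a1, -0.0039 to 0.25 for Gad1 and -0.015 to 0.11 for Gad2. The interaction of Slc32a1 ran from -0.041 to 0.27. For HFD against chow in controls Slc32a1 ran from -0.27 to 0.026 and Gad1 from -0.29 to 0.13, and in KO Slc17a6 ran from -0.19 to 0.40 and Slc32a1 from -0.15 to 0.12. No paired analysis was possible because the titles give mouse numbers and no replicate numbers, and only 1 pair of libraries from different groups (KO_HFD replicate 2 and Control_HFD replicate 3) shares the first part of a mouse number. Depth limits Slc17a8 most, with 2 to 59 reads a library.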
